A study of Homo sapiens and Mus musculus with 9 samples.

Results

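The genes described here are the human genes for heterogeneous nuclear ribonucleoproteins (hnRNPs) and for serine/arginine-rich splicing factors (SR proteins). They were taken by symbol as every protein-coding gene of the GRCh38 RefSeq gene table whose name begins with HNRNP or SRSF. This gave 38 of the 20052 protein-coding genes, 26 HNRNP and 12 SRSF genes. The rule uses no measured value, but the group was chosen with earlier results of these data known.

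hnRNPs coat nascent transcripts and, depending on where they bind, repress or promote the use of nearby exons, and many also act in RNA export, stability and translation. SR proteins carry RNA recognition motifs and a domain rich in arginine and serine, bind enhancer elements in exons and recruit spliceosome components. Both families are abundant in most cell types, bind RNA widely and control their own transcripts, often through alternatively spliced exons that expose the RNA to decay.

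The data come from eCLIP, in which UV light joins a protein to the RNA it touches and the RNA pulled down with an antibody is sequenced. The protein was the pregnane X receptor (PXR, encoded by NR1I2), a drug-sensing nuclear receptor that acts as a transcription factor. LS174T cells, a colorectal adenocarcinoma line, gave a wild-type input without antibody (n = 1), a wild-type pull-down with PXR antibody (n = 1) and the same pull-down from PXR knockout cells (n = 1). HepG2 cells, from a hepatocellular carcinoma, gave an input (n = 1) and pull-downs with antibody to the HA tag (n = 2), and mouse liver with human PXR gave 3 further samples of the 9, not used here. The labels do not describe the HA-tagged construct or say how many clones the knockout line represents. No treatment, dose or time was given for any group.

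The 3 human lists hold called peaks only, with no value per library, so no spread between replicates and no test between conditions was possible. The HepG2-labelled list was taken, from its name, to stand for the 2 HA pull-downs. It does not tell them apart, and how they were combined is not given. For LS174T the record and the list names disagree. The list recorded for the wild-type input has a name that reads wild-type pull-down (IP), here the WT-named list. The list recorded for the wild-type pull-down has a name that reads knockout, here the KO-named list, and no direction between them is drawn. The lists held 1557, 2103 and 46 peaks, in the order HepG2-labelled, WT-named and KO-named. Reads at the summit, worked out from the deposited fold and p-value, had a median of 9, 11 and 19. The fold was solved over the reads of the 10 kb window around each summit. Enrichment over the input was not tested. NR1I2 had no peak in any of the 3 lists. Of 16 hepatocyte genes, ALB, AFP, APOA1, TTR and SERPINA1 among them, 0 had a peak in the HepG2-labelled list, whereas 8 of 11 breast luminal epithelial genes did, including GATA3 (47 reads) and ESR1 (9 reads). The WT-named list had peaks at 6 of these 11, among them the keratins KRT8, KRT18 and KRT19, without GATA3 or ESR1. The HepG2-labelled list therefore went against its label at these markers, and what part this has in the results below was not tested. Of 16 colon epithelium genes the WT-named list had peaks at 11, led by TFF3 (68 reads), and the HepG2-labelled list at 3. The WT-named list had a peak at 1 of the 16 hepatocyte genes, HNF4A, and no list had a peak at 5 immune or 5 fibroblast genes.

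Of the 38 genes, 34 matched the RefSeq table of annotated transcription starts (GRCh38.p14), with 48 starts in all. HNRNPA1, HNRNPA1L3, HNRNPCL3 and SRSF2 were not matched. In 12 genes a peak summit lay within 1000 bp downstream of an annotated start, a distance chosen after the positions were seen. The sequences of these starts are shown because the RNA recovered at the peaks lies downstream of them. Each runs 5′ to 3′ on the gene strand from 60 bases before the annotated start, in lower case, through the first 15 transcribed bases, in capitals.
HNRNPA2B1, chr7:26200732-26200806, minus strand: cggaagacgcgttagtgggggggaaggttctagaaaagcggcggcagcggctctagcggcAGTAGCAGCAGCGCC
HNRNPAB, chr5:178204473-178204547, plus strand: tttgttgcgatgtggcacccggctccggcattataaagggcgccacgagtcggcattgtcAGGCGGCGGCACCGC
HNRNPD, chr4:82373977-82374051, minus strand: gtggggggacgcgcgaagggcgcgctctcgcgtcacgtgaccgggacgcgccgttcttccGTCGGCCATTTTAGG
HNRNPU, chr1:244864529-244864603, minus strand: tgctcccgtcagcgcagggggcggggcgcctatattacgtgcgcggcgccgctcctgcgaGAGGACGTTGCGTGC
HNRNPUL2, chr11:62727443-62727517, minus strand: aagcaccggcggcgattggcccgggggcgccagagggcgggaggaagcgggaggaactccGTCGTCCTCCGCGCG
HNRNPA0, chr5:137754349-137754423, minus strand: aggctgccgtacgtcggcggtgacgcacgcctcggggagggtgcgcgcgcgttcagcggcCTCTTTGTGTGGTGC
SRSF1, chr17:58007232-58007306, minus strand: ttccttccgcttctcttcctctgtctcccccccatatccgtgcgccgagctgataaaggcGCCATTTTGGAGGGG
SRSF9, chr12:120469734-120469808, minus strand: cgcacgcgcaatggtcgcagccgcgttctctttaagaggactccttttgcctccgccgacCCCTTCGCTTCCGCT
SRSF6, chr20:43457836-43457910, plus strand: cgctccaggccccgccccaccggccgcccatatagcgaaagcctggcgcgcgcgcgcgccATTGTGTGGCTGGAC

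In the other 3 genes the start upstream of the peak was an internal one, not at the outer end of the gene span. These are shown because each is the nearest annotated start upstream of its peak. Whether the RNA at the peak began there was not tested.
HNRNPL, chr19:38849972-38850046, minus strand: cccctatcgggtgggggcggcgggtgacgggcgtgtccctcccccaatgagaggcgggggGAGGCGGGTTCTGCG
HNRNPF, chr10:43397263-43397337, minus strand: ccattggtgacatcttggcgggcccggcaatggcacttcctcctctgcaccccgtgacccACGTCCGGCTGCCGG
SRSF11, chr1:70221320-70221394, plus strand: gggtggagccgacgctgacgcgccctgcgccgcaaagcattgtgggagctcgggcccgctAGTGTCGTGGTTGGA

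The windows around these 12 starts (250 bases before to 50 after) were rich in G and C, with a median of 66.7% (range 53.7 to 70.3%) and a median of 33 CG dinucleotides (range 23 to 40). All 22198 annotated starts of protein-coding genes had medians of 62.3% and 21, and the 48 starts of the splicing factor genes 64% and 29. The motif TATAAA, searched on both strands, occurred in 3 of the 12 windows (HNRNPAB, HNRNPD and SRSF11, 25.0%) and in 9.47% of all coding-gene windows. It occurred in 6 of the 48 windows of the splicing factor genes (12.5%). A match describes letters in a window and no site of a factor.

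Peaks were present in splicing factor genes in both larger lists. The HepG2-labelled list had a summit in 10 of the 38 genes (26.3%, Clopper-Pearson 95% interval 13.4 to 43.1%), where 5.45% of all protein-coding genes had one. The WT-named list had a summit in 16 of 38 (42.1%, interval 26.3 to 59.2%) against 7.24% of all protein-coding genes. The KO-named list had 0 of 38, and 0.130% of all protein-coding genes, or 26 genes, had a peak there at all. The members' shares stood above the background in both larger lists. The group was chosen with earlier results of these data known, and the intervals do not allow for that choice. Peak calling needs RNA to be present, the lists hold no expression values, and in bulk lysates fewer cells with an RNA and less RNA per cell cannot be told apart.

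**Figure D1:**
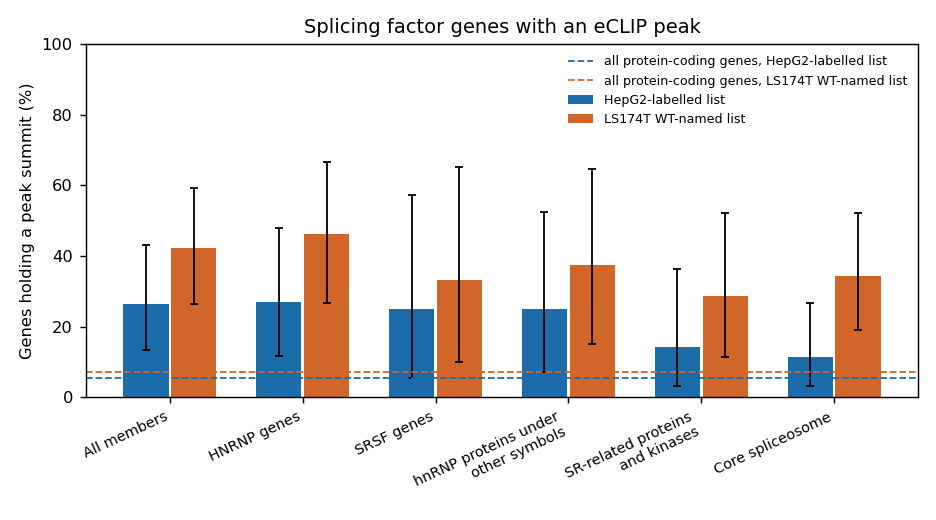
Percent of genes with a peak summit (vertical axis, bars from 0) in each gene group, for the HepG2-labelled and the LS174T WT-named list. Error bars are Clopper-Pearson 95% intervals and dashed lines the percent over all protein-coding genes, 5.45% and 7.24%. All bars stand above the line of their own list. In the HepG2-labelled list the interval of the SRSF genes ends just above the line, at 5.49%. The intervals of the SR-related and core spliceosome genes in that list include the line. The gene groups were chosen with earlier results of these data known.

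Both families took part. Peaks fell in 7 of 26 HNRNP genes (26.9%) in the HepG2-labelled list and in 12 of 26 (46.2%) in the WT-named list. For SRSF genes the counts were 3 of 12 (25.0%) and 4 of 12 (33.3%), with intervals of 5.49 to 57.2% and 9.92 to 65.1% that include the HNRNP shares. Every HNRNP gene of the HepG2-labelled list was also in the WT-named list, namely HNRNPAB, HNRNPD, HNRNPF, HNRNPL, HNRNPM, HNRNPU and HNRNPUL2. Among SRSF genes SRSF9 alone was in both. SRSF1 and SRSF2 had peaks in the HepG2-labelled list and none in the WT-named list. HNRNPA0, HNRNPA1L3, HNRNPA2B1, HNRNPK, HNRNPUL1, SRSF4, SRSF6 and SRSF11 had peaks in the WT-named list and none in the HepG2-labelled list. The 8 genes found in both made up 80.0% of the HepG2-labelled members and 50% of the WT-named members. Over all protein-coding genes 507 were in both, which is 46.4% and 34.9% of the lists and 2.53% of all genes tested.

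In all 18 of the 38 genes (47.4%) had a peak in at least 1 of the larger lists, against 10.2% of all protein-coding genes. The remaining 20 had none. They were HNRNPA1, HNRNPA3, HNRNPC, HNRNPDL, HNRNPH1, HNRNPH2, HNRNPH3, HNRNPLL, HNRNPR, the copies HNRNPA1L2 and HNRNPCL1 to HNRNPCL4, and SRSF3, SRSF5, SRSF7, SRSF8, SRSF10 and SRSF12. Several of these, such as HNRNPA1, HNRNPC and SRSF3, encode members of their families known as abundant in general. The lists hold no expression values for them in these cells. Genes with a peak had a median span of 15403 bp in the HepG2-labelled list and 14538 bp in the WT-named list, and genes without one 10993 and 9532 bp. All 38 spans had a median of 11372 bp, shorter than the 24098 bp of all protein-coding genes.

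The 10 genes of the HepG2-labelled list held 11 peaks and the 16 genes of the WT-named list 21. All of them were modest stacks, from 9 to 21 reads at the summit in the HepG2-labelled list and from 5 to 29 in the WT-named list. The medians of 14 and 12 reads compare with 10 and 11 over all peaks in protein-coding genes. In the HepG2-labelled list 1 of 11 member peaks rested on fewer than 10 reads, against 46.8% of all coding-gene peaks, and in the WT-named list 8 of 21 (38.1%) did, against 41.1%. Summit reads count reads that overlap at 1 position, with each read taken as 200 bp long in the solving, and are not RNA levels. Whether peak edges and summits mark the ends or contact points of the RNA was not tested. Intervals on them cover counting error only, since copies made by PCR may be included.

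**Figure D2:**
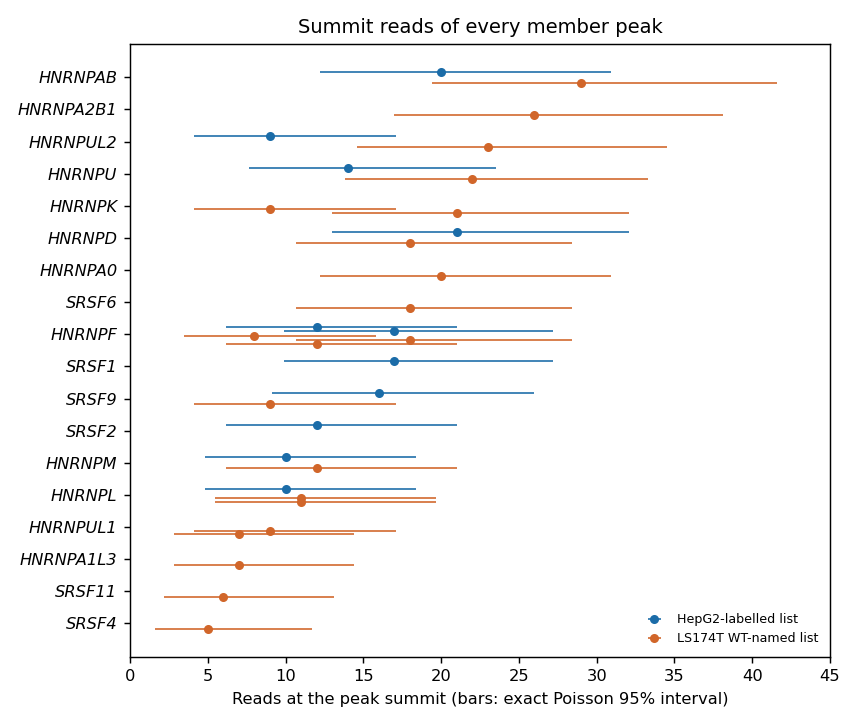
Reads at the summit of each peak (horizontal axis, linear) in the 18 splicing factor genes with a peak, with exact Poisson 95% intervals. Blue points are the HepG2-labelled list (9 to 21 reads) and orange points the WT-named list (5 to 29 reads). HNRNPAB and HNRNPA2B1 reach the most reads, and the intervals of most genes overlap.

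Where the strand of the gene was known, every member peak lay on it, 10 of 10 in the HepG2-labelled list (interval 69.2 to 100%) and 20 of 20 in the WT-named list (interval 83.2 to 100%). Over peaks in 1 protein-coding gene of known strand the shares were 85.8% of 931 and 94.7% of 1424. The member peaks thus read the sense RNA in these lists. SRSF2 and HNRNPA1L3 have no strand in the table used.

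The proteins of the A, B and D type bind AU-rich or related elements and have paired RNA recognition motifs. HNRNPAB held 20 reads in the HepG2-labelled list (Poisson 95% interval 12.2 to 30.9) and 29 in the WT-named list (19.4 to 41.6), the highest of any member there. Its peaks, at chr5:178204576-178204814 and chr5:178204569-178205159, had summits 28 bp apart and began 43 and 36 bp downstream of the annotated start. They reached into the start window itself, over the bases shown here with those under both peaks in capitals and those under the WT-named peak alone in lower case.
HNRNPAB, chr5:178204569-178204582, plus strand: ggtcggtGGGTTCC
HNRNPD, also called AUF1 and known for the turnover of AU-rich mRNAs, held 21 and 18 reads. Its peaks covered chr4:82373371-82373734 and chr4:82373380-82373907 and shared 355 bp. It had the most reads of any member in the HepG2-labelled list, more than 85.2% of the coding-gene peaks there.

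HNRNPA2B1, a core hnRNP that also binds RNAs bound for transport, held 26 reads (17 to 38.1) at chr7:26200437-26200686 in the WT-named list. The summit lay 145 bp from the start, the shortest such distance of any member peak, and the peak began 60 bp from it. HNRNPA0, which binds AU-rich mRNAs of stress and inflammation, held 20 reads (12.2 to 30.9) at chr5:137753948-137754208, 338 bp from its start. Neither had a peak in the HepG2-labelled list. A list of called peaks does not show whether reads below the calling limit were there.

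HNRNPA1L3, a short gene similar to HNRNPA1, held 7 reads (2.81 to 14.4) at chr16:51646484-51646683 in the WT-named list. All 7 of the 7 reads in its 10 kb window lay at the summit, the only member peak of which this was true. HNRNPA1 has many near-identical copies in the genome, and the placement of reads among them is uncertain. HNRNPA1 itself and HNRNPA1L2 had no peak.

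The U group contains large nuclear proteins that bind RNA and, through a scaffold attachment domain, DNA. HNRNPU held 14 reads in the HepG2-labelled list (7.65 to 23.5) at chr1:244863727-244864114 and 22 in the WT-named list (13.8 to 33.3) at chr1:244863528-244864417. The WT-named peak was 890 bp wide, the widest of the member peaks, and covered the whole of the other. HNRNPUL2 held 9 reads (4.12 to 17.1) at chr11:62726903-62727292 and 23 (14.6 to 34.5) at chr11:62726558-62727131, with 229 bp in common. Both peaks also lie in HNRNPUL2-BSCL2, a readthrough transcript of the same strand, and the reads cannot be split between them. HNRNPUL1 had 2 peaks in the WT-named list, with 7 reads at chr19:41292319-41292518 and 9 at chr19:41306832-41307045, the latter 838 bp from the end of the gene.

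HNRNPK, a poly(C)-binding hnRNP with KH domains, had 2 peaks in the WT-named list. The deeper held 21 reads (13 to 32.1) at chr9:83971769-83972050, 8680 bp into a gene of 12533 bp, and the other 9 reads at chr9:83978224-83978423. HNRNPF, which binds runs of G, had more peaks than any other member, 2 in the HepG2-labelled list and 3 in the WT-named list. In the HepG2-labelled list they held 17 reads (9.9 to 27.2) at chr10:43387643-43387847 and 12 (6.2 to 21) at chr10:43407360-43407587. The WT-named list had 18 reads (10.7 to 28.4) at chr10:43386937-43387484, 12 at chr10:43386576-43386776 and 8 at chr10:43396321-43396520. None of these overlapped between the lists, but the deepest of each were 158 bp apart and lay 2136 and 1499 bp from the end of the gene. The 8-read peak had its summit 872 bp downstream of the internal start shown above and 12781 bp from the outer end of the gene.

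HNRNPL, which binds CA repeats, had a peak near its internal start in both lists. It held 10 reads (4.8 to 18.4) at chr19:38849579-38849868 in the HepG2-labelled list and 11 (5.49 to 19.7) at chr19:38849643-38849866 in the WT-named list. The upstream edges lay 118 and 120 bp from the start at position 38849986, and the summits 251 and 189 bp from it. From the outer end of the gene span the summits were 2612 and 2550 bp away. A further WT-named peak of 11 reads lay at chr19:38840102-38840305. HNRNPM, which binds GU-rich RNA, had 1 peak in each list near the end of a gene of 44140 bp. They held 10 reads at chr19:8486180-8486379 and 12 at chr19:8485697-8485998 and were 181 bp apart.

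SRSF1 is the founding SR protein and promotes inclusion of exons through purine-rich enhancers. In the HepG2-labelled list it held 17 reads (9.9 to 27.2) at chr17:58006932-58007176, with the summit 210 bp from the start. SRSF2, also called SC35, is used as a marker of nuclear speckles. It held 12 reads (6.2 to 21) at chr17:76736704-76736903 on the minus strand, in a stretch that also belongs to MFSD11, a gene of the plus strand. Neither gene had a peak in the WT-named list.

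SRSF9 held 16 reads (9.15 to 26) in the HepG2-labelled list at chr12:120469431-120469676, 229 bp from its start, and 9 reads (4.12 to 17.1) in the WT-named list at chr12:120465488-120465690. The 2 peaks were 3740 bp apart, so the gene was shared and the site was not. Of the 24 reads in the window of the HepG2-labelled peak, 66.7% lay at the summit (interval 44.7 to 84.4%). SRSF6 held 18 reads (10.7 to 28.4) in the WT-named list at chr20:43458590-43458813, 859 bp from its start. SRSF11 (6 reads at chr1:70221609-70221816) and SRSF4 (5 reads at chr1:29148751-29148963) were the shallowest member peaks. The SRSF11 summit lay 376 bp after an internal start, 16060 bp into the gene.

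**Figure D3:**
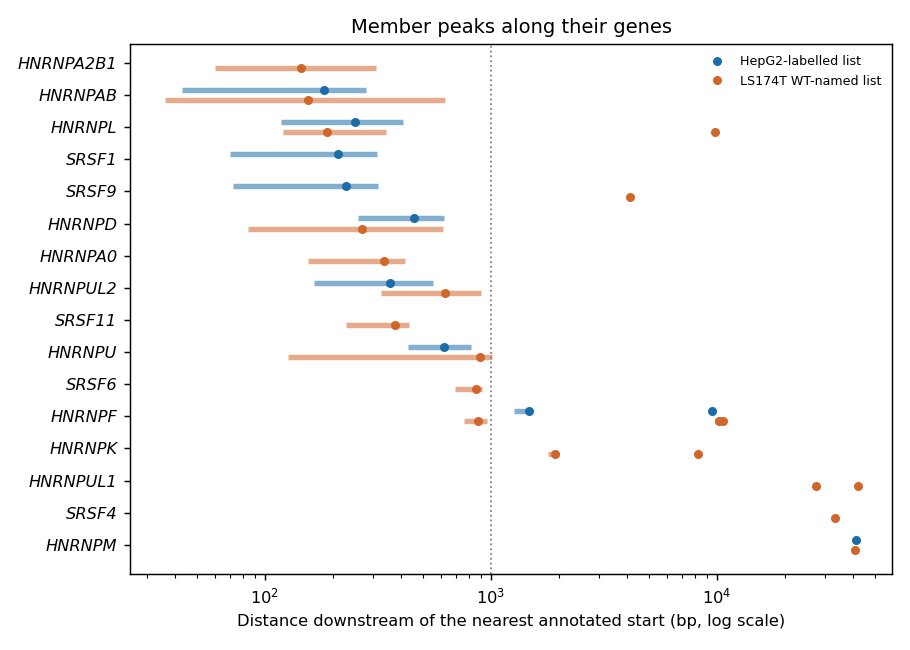
Position of each member peak on the gene strand, as the distance downstream of the nearest annotated start of its gene (bp, log scale). Bars span the peak, points are the summits, colours are the lists, and the dotted line marks 1000 bp. In the HepG2-labelled list 7 of 10 summits and in the WT-named list 10 of 20 lie left of the line.

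Measured from the nearest annotated start upstream, 7 of 10 summits in the HepG2-labelled list (70%, interval 34.8 to 93.3%) and 10 of 20 in the WT-named list (50%, interval 27.2 to 72.8%) lay within 1000 bp. All peaks on the strand of a single protein-coding gene gave 62% of 786 and 51.8% of 1325. Lying near a start was therefore as frequent in the splicing factor genes as over all genes, within these intervals, and is not particular to them. The nearest member summits inside the limit were those of SRSF6, HNRNPF and HNRNPU (859, 872 and 892 bp), and the nearest outside were HNRNPF and HNRNPK (1466 and 1925 bp). At the other end, with a distance also chosen after the positions were seen, 2 of 10 (20%, interval 2.52 to 55.6%) and 8 of 20 (40%, interval 19.1 to 63.9%) member summits lay within 4000 bp of the end of the gene. Over all coding-gene peaks on the gene strand the shares were 28.5% of 799 and 34.8% of 1348, inside the members' intervals. In short genes this limit covers much of the span, and the SRSF9 summit counted here lay 3940 bp from the end of a gene of 8077 bp. Exon, intron and UTR annotation was not used here.

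Of the 11 member peaks in the HepG2-labelled list 5 overlapped a WT-named peak on the same strand (45.5%), and 5 of the 21 WT-named peaks overlapped in turn (23.8%). Over all coding-gene peaks the shares were 39.7% and 25.5%, near those of the members. The 5 shared sites were in HNRNPAB, HNRNPD, HNRNPL, HNRNPU and HNRNPUL2, and all lay within 1000 bp of a start. That limit was chosen after the positions were seen. The same share over all overlapping pairs in coding genes was not worked out, so this is not shown to be particular to these genes. Their summits differed by 28 bp in HNRNPAB, 62 bp in HNRNPL and 186 to 274 bp in the others.

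At these sites the ratio of WT-named to HepG2-labelled reads was 1.45 in HNRNPAB (exact conditional 95% interval 0.793 to 2.7), 0.857 in HNRNPD (0.431 to 1.69), 1.1 in HNRNPL (0.424 to 2.89), 1.57 in HNRNPU (0.769 to 3.32) and 2.56 in HNRNPUL2 (1.14 to 6.28). Only the HNRNPUL2 interval left out a ratio of 1, but its summits lay 265 bp apart, so its counts come from different positions. The HepG2-labelled list was also taken to stand for 2 pull-downs, combined in a way that is not given, so a ratio of 1 is no fixed reference. Over the 468 overlapping pairs in coding genes the median ratio was 1.08, with quartiles 0.718 and 1.78. Reads over the whole 10 kb window gave 60 against 32 in HNRNPUL2 (ratio 1.88, 1.2 to 2.98) and 90 against 56 in HNRNPU (1.61, 1.14 to 2.29), and intervals that included 1 in the other 3. The median window ratio over all pairs was 0.983. Without replicates and with no depth given for any list, these ratios compare lists and not conditions.

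The 8 genes found in both lists reached a median of 18 reads at their highest WT-named peak (range 9 to 29). The 8 found in the WT-named list alone reached 13.5 (range 5 to 26). Both ranges overlap widely. The lowest coding-gene peak in the HepG2-labelled list rested on 3 reads, but member peaks there held at least 9, in windows of 24 to 65 reads. Whether the calling limit separates these genes was not tested. SRSF4, SRSF11, HNRNPA1L3 and HNRNPUL1, with at most 9 reads each, were the shallowest of the WT-named genes without a partner, whereas HNRNPA2B1, HNRNPK and HNRNPA0 had 26, 21 and 20.

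Member peaks sat in windows with more reads than most. In the HepG2-labelled list their 10 kb windows held a median of 55 reads (range 24 to 65), against 20 for all coding-gene peaks. In the WT-named list the medians were 37 (range 7 to 90) and 22. The summit held a median of 28.1% of its window's reads in the HepG2-labelled list and 37.5% in the WT-named list, against 52.9% and 50% for all coding-gene peaks. The windows, and not the input, supply the background in the solved values, so a fuller window asks for more reads at the summit. The share at the summit was highest in HNRNPA1L3 (100%), SRSF9 in the HepG2-labelled list (66.7%) and HNRNPUL1 (58.3% at its inner peak) and lowest in SRSF2 (18.5%) and HNRNPF (19% at a WT-named peak).

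**Figure D4:**
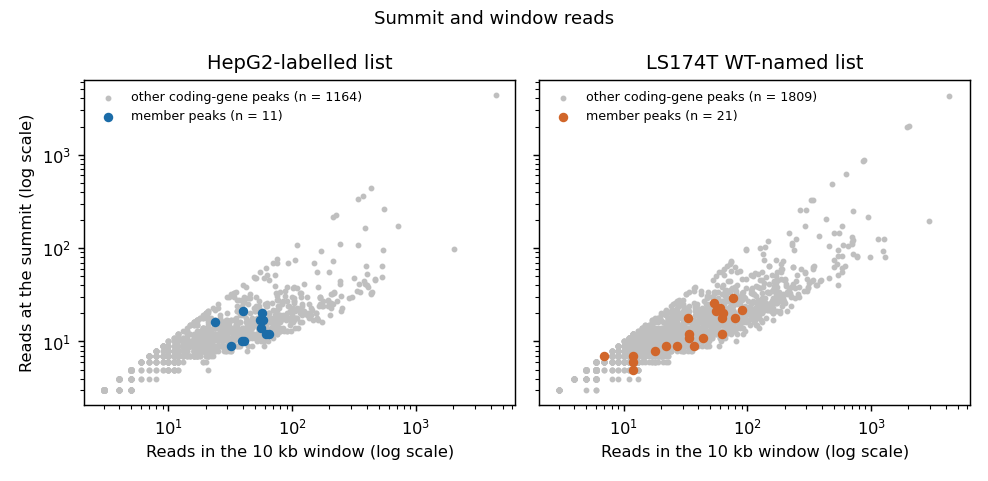
Reads at the summit against reads in the 10 kb window (both log scales) for every peak in a protein-coding gene, with member peaks coloured, 11 in the HepG2-labelled list and 21 in the WT-named list. Member peaks hold 9 to 21 reads in the HepG2-labelled list and 5 to 29 in the WT-named list. None is near the deepest peaks of either list, which hold 4408 and 4233 reads. In the HepG2-labelled list they fall toward fuller windows, with a median of 55 reads against 20.

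Other splicing genes carried peaks as well. Of 16 genes for hnRNPs and related proteins under other symbols, 4 had a peak in the HepG2-labelled list (25.0%) and 6 in the WT-named list (37.5%). They included the poly(C)-binding PCBP1 (16 reads in both), KHSRP (9 and 18 reads, HepG2-labelled first) and the pyrimidine-tract binder PTBP1 (13 reads, HepG2-labelled). Of 21 SR-related proteins and SR protein kinases, 3 (14.3%) and 6 (28.6%) had a peak. SRRM2, a scaffold of nuclear speckles, held 45 and 15 reads and RBM39 20 and 3. TRA2B held 10 reads in the WT-named list. Of 35 core spliceosome genes, 4 (11.4%) and 12 (34.3%) had a peak. They included SNRNP70 of the U1 particle (17 and 5 reads), U2AF2, which reads the polypyrimidine tract (16 reads, HepG2-labelled), and SF3A2 and SF1 (14 and 13 reads, WT-named). In the KO-named list 0 genes of these 3 lists had a peak. In both larger lists the shares of these gene groups were above the background. In the HepG2-labelled list, however, the intervals of the SR-related (3.05 to 36.3%) and core spliceosome genes (3.2 to 26.7%) included 5.45%. These groups, too, were chosen with earlier results of these data known.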

How the data were processed

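The data were eCLIP peak lists. Reads were processed with cutadapt, BWA and MACS2 on hg38, per the submitters' processing notes, and their versions and settings are not given in the sources used here. Per peak, the authors deposited a score (10 times the −log10 q), a fold enrichment, a −log10 p-value and a −log10 q-value, and the summit offset. Each strand had its own calls, as the peak names show.

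Peaks were placed in genes by summit, on either strand, with RefSeq gene spans (GRCh38.p14). Strands and starts came from RefSeq's start table. Whole reads at the summit and in its 10 kb window (10000 bp) were solved from fold = (n + 1)/(λ + 1) and the Poisson p, with λ in steps of 0.02. This step takes each read as 200 bp long. The solving succeeded for 3705 of 3706 human peaks, every member peak included. It was tested on data simulated with the same formula and step. That test cannot show whether the deposited values were made with them. Python 3.11.15 and scipy 1.17.1 were used. Intervals are 95%, Clopper-Pearson for shares, exact Poisson for reads and exact conditional binomial for ratios, and cover counting error only. Peaks were shared when they overlapped by at least 1 bp on the same strand.

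The members, gene lists and markers were chosen with earlier results of these data known. Every member with a peak is named, and from each other list up to 4 genes with most reads, except 1 that is not reported here. No tests were run, since no list has values per library.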

Additional observations from a re-analysis of the deposited data

Results flagged for a closer look

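Peaks were also present in features that carry the HNRNP name without being protein-coding genes, which the counts above leave out. HNRNPD-DT, a long noncoding gene that runs away from HNRNPD on the opposite strand, had a peak at the identical position in both lists, chr4:82377302-82377501 on the plus strand, with 5 reads in the HepG2-labelled list and 4 in the WT-named list. These made up 5 of 7 and 4 of 5 reads of their windows. HNRNPKP4, a pseudogene of HNRNPK on chromosome 3, held 13 reads at chr3:96349759-96349976 in the WT-named list, beside the 21 reads of HNRNPK itself. It was the only one of 142 HNRNP or SRSF pseudogenes with a peak in any of the 3 lists. Whether its reads belong to HNRNPK was not tested.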

How the results depend on the processing

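With peaks of −log10 q of at least 5, the HepG2-labelled list kept 6 of its 10 members and the WT-named list 14 of its 16. At that setting 5 members were in both larger lists instead of 8. Counting a gene as shared only where peaks overlap also gave 5. Requiring summits within 50 bp left 1 shared site, HNRNPAB. Shares over all protein-coding genes are not given at these settings or with at least 10 reads. The smaller member counts therefore cannot be set against a background. Among protein-coding genes with spans in the range of the members (1323 to 60296 bp), 4.73% had a HepG2-labelled peak instead of 5.45%. Placing peaks by strand, by any overlap, by the shortest gene or with at least 10 reads, and leaving out the HNRNPA1L and HNRNPCL copies (chosen after seeing the data), moved the member counts of the larger lists by at most 1.5 times, between 9 and 10 and between 11 and 16, and the KO-named count stayed at 0 under each. The reads did not depend on the condition on λ. The comparison by exon, intron and UTR was not run. No paired analysis was possible because the lists carry no values per library. Depth limits what can be compared, since most member peaks rest on fewer than 20 reads.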
